A study of Mus musculus with 3 samples.

Results

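Dendritic cells with high Tnfsf4 mRNA were taken from the draining lymph nodes of inflamed mouse ears. They were kept cells with at least 5 Tnfsf4 UMIs (unique molecular identifiers, which count captured mRNA molecules) and a sum of C1qa, C1qb and C1qc below 5 UMIs, whatever their antibody tag levels. There were 423 of these cells, called Tnfsf4-high cells here, among 5019 kept cells, which left 4596 other cells. A kept cell had at least 80% of its hashtag UMIs from 1 hashtag, 500 or more genes, 1000 or more mRNA UMIs and no more than 10% of these from mitochondrial genes. Because Tnfsf4 UMIs chose the cells, every gene difference from the other cells is a description of that choice and carries no test.

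The mice carried Cre as SiglechiCre Tg/0, an RFP behind a LoxP-STOP-LoxP cassette in ROSA26, and a Tnfsf4 KI/+ knock-in, and were called BFP and RFP reporter mice by the fluorescent proteins used for sorting. MC903, a vitamin D analogue that inflames skin, was given on days 0, 2 and 4, and lymph nodes were taken on day 5. The gate was B220-, MHCII high, CD11c low to intermediate, XCR1- and CD326-, which aims at migratory dendritic cells without the CD326+ Langerhans cells and the XCR1+ conventional dendritic cells (cDC1). The 4 sorted populations (BFP+RFP+, BFP-RFP+, BFP+RFP- plus BFP-RFP-) came from mice of this 1 genotype and treatment, with no untreated mice and no mice without the knock-in among the samples described here. Each population carried its own hashtag and all were pooled into 1 capture at 5200, 5200, 10400 and 5200 cells. The number of mice behind each population is not given in the labels, so each population is 1 sample and cells are not replicates. The labels do not state which of the modified loci carries BFP.

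Tnfsf4 encodes OX40L, a membrane ligand of the TNF superfamily. It binds OX40, a receptor on activated T cells, and prolongs their survival and cytokine production. On dendritic cells it is known as a signal of type 2 immunity, and the epithelial cytokine TSLP, which MC903 raises in skin, is known to induce it.

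The hashtag sequences are shown because they alone assign a cell to its population, and the CD8a tag sequence because that tag differed most between Tnfsf4-high and other cells. The 6 hashtag pairs differed at 11 to 13 of 15 positions. They were read from the deposited feature list, 5′ to 3′.
Hashtag 1 (BFP+RFP+): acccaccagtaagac
Hashtag 2 (BFP-RFP+): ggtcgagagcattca
Hashtag 3 (BFP+RFP-): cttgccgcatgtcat
Hashtag 4 (BFP-RFP-): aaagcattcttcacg
CD8a tag: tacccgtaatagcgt

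Tnfsf4-high cells were found in all 4 populations, most often among BFP+RFP+ cells. They made up 186 of 841 BFP+RFP+ cells (22.1%, 95% Clopper-Pearson interval 19.4 to 25.1%), 51 of 982 BFP-RFP+ cells (5.19%, 3.89 to 6.77%), 174 of 2184 BFP+RFP- cells (7.97%, 6.87 to 9.18%) and 12 of 1012 BFP-RFP- cells (1.19%, 0.614 to 2.06%). All intervals here are at 95% and cover counting error alone, not differences between mice, sorts or captures. The sort on BFP and RFP fixed the populations, so these shares also describe the gates.

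Tnfsf4-high cells had more UMIs than other cells, and the part of the rule's floor in this was not tested. Their median mRNA total was 21862 UMIs, against 14109.5 UMIs in other cells. After each cell was thinned to 8000 UMIs, with 9 Tnfsf4-high and 709 other cells too shallow to enter, the share with at least 3 Tnfsf4 UMIs was 20.2% in BFP+RFP+, 4.10% in BFP-RFP+, 6.67% in BFP+RFP- and 0.951% in BFP-RFP- cells. The order of the populations was the same as without thinning. Genes per thinned cell had a median of 2319 in Tnfsf4-high and 2354 in other cells, and mitochondrial UMIs had medians of 2.02% and 2.04%.

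As the rule sets, Tnfsf4-high cells held most Tnfsf4 UMIs, 7444 of 9073 (82.1%). Levels were uneven among them, and their top 42 cells held 38.2% of the Tnfsf4 UMIs of that group. Median Tnfsf4 counts per Tnfsf4-high cell were 13.5 in BFP+RFP+, 7 in BFP-RFP+, 10 in BFP+RFP- and 12 in BFP-RFP- cells, and the highest cells had 209, 53, 94 and 32 UMIs in the same order. Per 1000000 mRNA UMIs (CPM) Tnfsf4 stood at 901, 524, 611.5 and 585 in Tnfsf4-high cells of the 4 populations, against 49.5, 15.2, 25.6 and 8.71 in the other cells. The rule set the distance between the groups but not the order among Tnfsf4-high cells, highest in BFP+RFP+. The sort on BFP and RFP fixed the populations, so that order also describes the gates. BFP mRNA stood at 4.10 CPM in cells with 0 Tnfsf4 UMIs and 82.8 CPM in those with 10 or more.

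**Figure D1:**
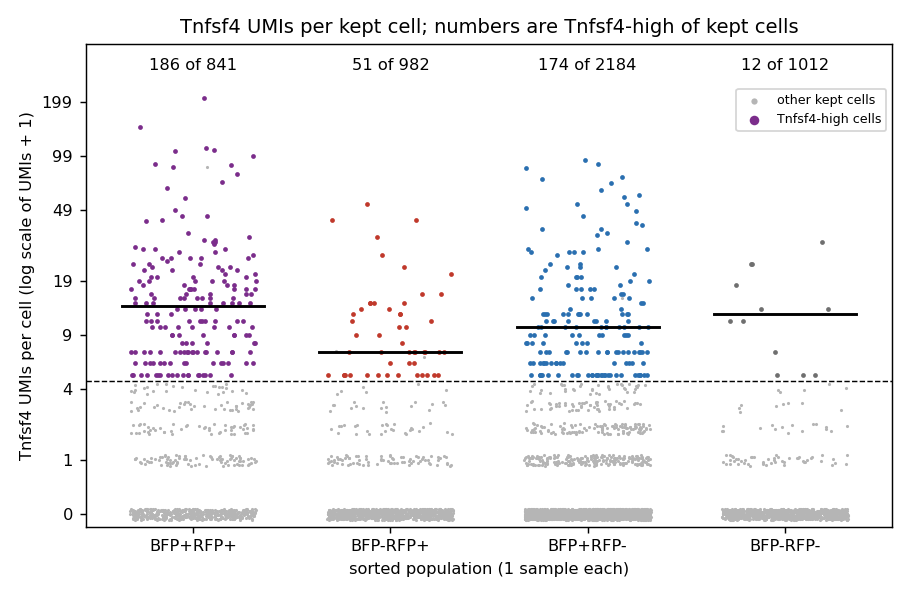
Tnfsf4 UMIs per cell by sorted population, for Tnfsf4-high cells and other kept cells, on a log scale of UMIs + 1, with the median of Tnfsf4-high cells (black line) and the limit between 4 and 5 UMIs that the rule uses (dashed line). The highest cell has 209 UMIs and lies in BFP+RFP+, and the 5 other cells on or above the line have C1q sums of at least 5 UMIs.

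Free RNA and doublets were looked at through cells with markers of other cell types. At least 1 Tnfsf4 UMI was found in 16.0% of the 50 cells with a C1q sum of 5 or more (median depth 18198.5 UMIs), 16.4% of the 256 cells with at least 3 UMIs of T and NK cell markers (10236 UMIs), 11.2% of the 134 cells with at least 3 UMIs of B cell markers (7393.5 UMIs) and 25.97% of the 4579 remaining cells (14732 UMIs). At least 5 Tnfsf4 UMIs were found in 10.0%, 3.91%, 0.746% and 8.998% of these cells in the same order. A cell with 1 or a few Tnfsf4 UMIs was therefore not read as expressing the gene. The limit of 5 UMIs is not free of this doubt either, since cells of each marker class reached it. Whether those UMIs came from free RNA, doublets or the cells themselves was not tested. Tnfsf4-high cells included 10 cells with at least 3 T and NK cell UMIs and 1 with at least 3 B cell UMIs. The hashtag rule removes doublets across populations, while doublets within a population were not removed and no doublet caller was run. Without the 5% deepest cells, the log2 ratios of the leading genes named below were larger, at 2.94 for Tnfsf9, 2.83 for Gprin2, 2.59 for Dll4 and 2.30 for Cd70.

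The label of dendritic cells was checked against markers. All 16 markers of migratory dendritic cells were detected in Tnfsf4-high cells. All 10 B cell markers were detected there too, so detection in the pooled cells does not tell cell types apart. The 16 markers summed to 19503.7 CPM, against 20150.9 CPM in other cells, with population ranges of 17075.0 to 20325.4 and 18094.2 to 21519.6 CPM. Ccr7, the chemokine receptor that guides dendritic cells to lymph nodes, stood at 1603 CPM in Tnfsf4-high and 1398 CPM in other cells. Xcr1 of cDC1 and Cd207 of Langerhans cells had 0 UMIs in Tnfsf4-high cells, but also only 11 and 9 UMIs in all other cells. The 10 cDC1 markers summed to 417.0 CPM in Tnfsf4-high and 416.3 CPM in other cells, and of the 4 tested ones 2 were higher by the limit used below, Wdfy4 (log2 ratio 0.85) and Cadm1 (0.70), and 1 lower, Naaa (-0.77). At the same depth none of the 4 was higher and 1 was lower. The 7 Langerhans cell markers summed to 31.7 and 37.1 CPM.

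Of the reporter transcripts BFP was higher in Tnfsf4-high cells of each population, while RFP was near the level of other cells in the RFP+ populations. BFP stood at 89.5, 41.0, 59.8 and 34.8 CPM in Tnfsf4-high cells of BFP+RFP+, BFP-RFP+, BFP+RFP- and then BFP-RFP- populations, against 20.8, 4.46, 10.4 and 1.71 CPM in other cells. BFP mRNA was thus present in Tnfsf4-high cells sorted as BFP-, at a higher level than in other cells sorted as BFP+. Those levels rested on 48 UMIs in BFP-RFP+ cells, with 35.4% of them in 3 cells, and on 10 UMIs in BFP-RFP- cells. The RFP feature (tdRFP) was at 23.1, 23.9, 0.216 and 10.5 CPM in Tnfsf4-high cells, the last from only 3 UMIs, against 23.7, 20.8, 0.162 and 0.480 CPM in other cells. Over all cells the log2 ratio of tdRFP was 0.69 (0.39 to 0.96). In the RFP+ populations it was -0.03 with BFP and 0.23 without, and over all cells it was -0.04 against other cells in the same hashtag mix. Siglech, the lectin gene whose locus drives Cre, had 0 UMIs in Tnfsf4-high cells and 28 in other cells.

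The threshold cut a gradient. Just inside it, 66 cells with 5 Tnfsf4 UMIs had 108.2 CPM of Tnfsf9 and 41.8 CPM of Dll4, and just outside it, 75 cells with 4 UMIs had 128.0 and 27.2 CPM. Across classes of 0, 1 to 2, 3 to 4, 5 to 9 and at least 10 Tnfsf4 UMIs, with 3723, 629, 194, 183 and 240 cells, Tnfsf9 stood at 32.4, 56.9, 94.8, 160.4 and 298.9 CPM. Cd70 stood at 12.5, 24.7, 31.5, 50.9 and 80.6 CPM over the same classes, and Bcl2l1 at 97.1, 140.5, 204.9, 241.2 and 436.5 CPM. These genes had higher levels in each successive class, but not every gene did. Dll4 stood at 26.4 CPM in the class of 1 to 2 and 21.7 CPM in that of 3 to 4. Il12b stood at 43.2 CPM in the class of 0 and 33.9 CPM in that of 1 to 2. Ccl5 was lower in each successive class, at 4558, 3468, 2343, 1739 and 1113 CPM. Median depth moved along with the classes, at 13420, 16549, 19407, 19968 and 23015 UMIs, and its part in the gradient was not tested.

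**Figure D2:**
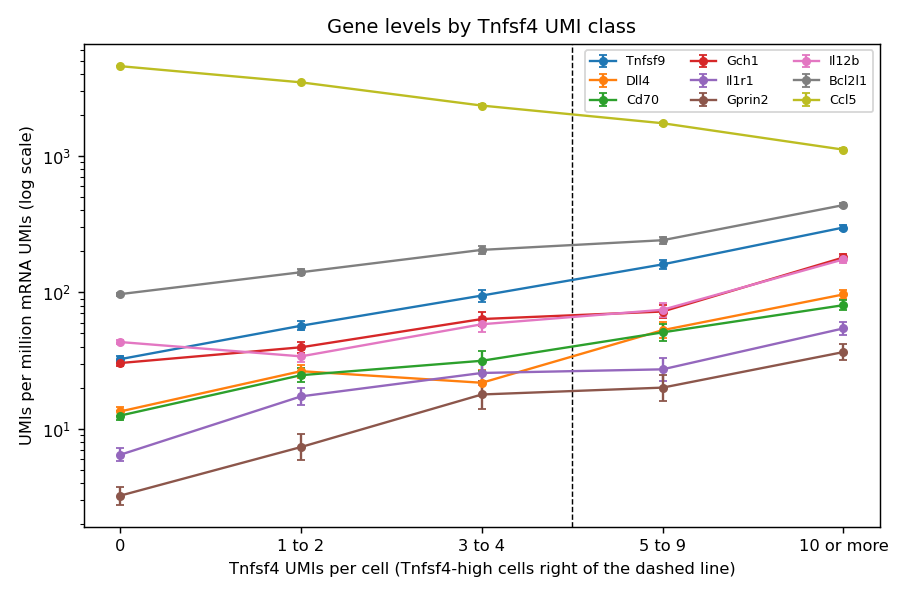
Levels of named genes (CPM, log axis) in cells grouped by Tnfsf4 UMIs, with C1q sums below 5 in every class and 95% counting intervals as bars. Tnfsf9 stands at 32.4 CPM in the class of 0 and at 298.9 CPM in the class of 10 or more, while Ccl5 stands at 4558 and 1113 CPM.

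Across genes, 484 of 9250 tested genes (those with at least 300 UMIs) had a log2 ratio of Tnfsf4-high over other cells of at least 0.5 and are called higher (5.23%), and 1323 had one of -0.5 or less and are called lower (14.3%). The median of all tested genes was -0.14, so a gene near that value did not stand apart from the bulk. Scaled by TMM, which moves that median close to 0, the split was 761 higher and 921 lower. List medians below are to be read beside -0.14 and list counts beside 5.23% and 14.3%.

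The TNF superfamily ligands, costimulatory relatives of Tnfsf4, had the highest median of the 34 lists over all cells, at 1.27. Of the 7 tested genes 4 were called higher and 2 lower. The lead did not hold within each population. The median of these ligands was 0.80 in BFP+RFP+, 0.04 in BFP-RFP+ and 1.62 in BFP+RFP-. That of the AP-1 and immediate early list described below was 0.86, 0.68 and 0.65 in the same order. Tnfsf9, which encodes 4-1BBL, a ligand that stimulates CD8 T cells, stood at 275.7 CPM in BFP+RFP+, 289.9 in BFP-RFP+, 206.9 in BFP+RFP- and 163.7 in BFP-RFP- Tnfsf4-high cells, against 43.4, 64.9, 28.4 and 39.5 CPM in other cells, with a log2 ratio of 2.59 (2.51 to 2.67). Cd70, the ligand of CD27, stood at 80.7, 55.6, 61.7 and 55.7 CPM, against 18.4, 20.9, 13.2 and 13.4 CPM in other cells (2.14, 2.00 to 2.28). For both genes each Tnfsf4-high value lay above every value of the other cells. Tnf, the inflammatory founding member of the family, was higher in the 4 populations as well, at 28.7, 33.4, 38.8 and 20.9 CPM against 9.31, 16.0, 10.8 and 13.7 CPM (1.45). Lta, lymphotoxin alpha, was at 10.2 CPM in Tnfsf4-high and 4.21 CPM in other cells (1.27). Tnfsf8, the ligand of CD30, was lower, at 1.45 and 4.54 CPM (-1.602), and Tnfsf12, the ligand TWEAK, at 2.23 and 5.33 CPM (-1.23). The top 5 cells held 38.1% of the Tnfsf8 UMIs. When cells with C1q, T and NK or B cell UMIs were left out on both sides, Tnfsf8 came to 0.02 and Tnfsf12 to -1.33. Of the receptors of this family 1 of 14 was called higher and 3 lower, with a median of -0.11. The member called higher was Tnfrsf11b, the decoy receptor of RANKL (1.22), whereas Cd40 (0.21), the receptor through which T cells license dendritic cells, and Tnfrsf4 (0.31), which encodes OX40, were not called.

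Of the IL-1 family list 3 of 15 genes were called higher, all of them receptors, and 6 lower, with a median of -0.38. Il1r1, the signalling receptor of IL-1, stood at 52.7, 53.0, 35.2 and 3.48 CPM in Tnfsf4-high cells of BFP+RFP+, BFP-RFP+, BFP+RFP- and then BFP-RFP- populations, against 21.3, 11.7, 6.88 and 4.66 CPM in other cells (log2 ratio 2.20, 2.02 to 2.38). The 12 BFP-RFP- cells were below their other cells, on 1 UMI. Il1rl2, the receptor of IL-36, stood at 47.6, 53.9, 19.6 and 13.9 CPM, against 17.3, 14.2, 5.30 and 5.76 CPM (1.96), with the top 5 cells holding 12.3% of its UMIs. Il1r2, the decoy receptor of IL-1, stood at 61.9, 84.7, 46.2 and 13.9 CPM, against 18.5, 25.7, 12.3 and 25.6 CPM (1.58). These 3 receptors were higher in both RFP+ populations and in BFP+RFP- cells. Another receptor of the list, Il18r1 for IL-18, was lower (-1.07), and Il1rap, the shared accessory chain, was not called (0.32). The cytokine genes Il18 (-1.57) and Il1b (-0.52), the antagonists Il1rn (-0.74) and Il18bp (-0.66) and the kinase-like inhibitor Irak3 (-1.10) were the other lower ones.

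The reporter BFP, left out of the ranking along with the rule's genes, had a log2 ratio of 2.97. Of the ranked genes Gprin2, whose product is linked to G protein signalling and neurite growth in nervous tissue, had the largest ratio. It stood at 40.02, 29.9, 22.2 and 3.48 CPM in Tnfsf4-high cells of the populations in the same order, against 8.50, 6.31, 3.97 and 2.47 CPM in other cells (2.64, 2.42 to 2.87). Cacnb2, a beta subunit of voltage-gated calcium channels, stood at 35.3, 128.3, 41.9 and 10.5 CPM, against 15.5, 22.0, 8.69 and 13.2 CPM (1.85). Its BFP-RFP+ level is uneven, since 3 cells held 70.0% of those UMIs. Cacna1d, the pore of an L-type calcium channel, stood at 150.4, 144.5, 124.5 and 73.2 CPM, against 50.4, 54.5, 24.4 and 25.7 CPM (1.98). These were the only 2 of 9 tested channel subunits called higher, none was called lower, and the list's median was -0.26. Of 20 genes of calcium entry and calcineurin signalling, 1 was called higher, the store-operated channel Orai1 (0.68), and 4 lower, with a median of -0.29.

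The markers were detected in a part of the Tnfsf4-high cells each. In cells thinned to 8000 UMIs, none of Gprin2, Cacnb2, Il1rl2, Il1r1 and Tnfsf9 was found in 27.1% of 414 Tnfsf4-high cells, against 78.0% of 3887 other cells. At least 3 of these 5 markers were found in 15.5% of Tnfsf4-high and 1.24% of other cells. Among other cells with T and NK cell UMIs the share with at least 3 was 0.625%, and among those with B cell UMIs 4.29%, on 160 and 70 cells. With 0 markers in 27.1% and 1 in 36.5%, most Tnfsf4-high cells showed at most 1 of the 5 at this depth, and whether the markers fell in the same cells more often than their levels give was not tested.

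The remaining genes of the 15 with the largest ratios were of mixed roles. Dll4, a Notch ligand that acts on T cells, stood at 95.1, 117.1, 59.6 and 0 CPM in Tnfsf4-high cells of BFP+RFP+, BFP-RFP+, BFP+RFP- and then BFP-RFP- populations, against 20.4, 29.6, 11.0 and 11.4 CPM in other cells (2.28, 2.15 to 2.41). Gch1, the first enzyme of tetrahydrobiopterin synthesis, stood at 146.4, 194.1, 118.5 and 62.7 CPM, against 31.8, 53.0, 26.6 and 32.4 CPM (2.01). Slco3a1, an organic anion transporter, stood at 97.9, 169.3, 104.7 and 209 CPM, against 39.8, 55.0, 26.6 and 25.7 CPM (1.71). All 3 were higher in each population with at least 20 Tnfsf4-high cells, and Dll4 had 0 UMIs in the 12 BFP-RFP- cells. Dusp8 (2.05) and Dusp4 (1.81) encode phosphatases that switch off MAP kinases, Tagap (1.91) a GTPase-activating protein, Nrgn (1.88) a calmodulin-binding protein of neurons, Colq (1.92) the collagen tail of acetylcholinesterase, Rhod (1.74) a small GTPase and Dact3 (1.71) an antagonist of Wnt signalling. The Notch list beyond Dll4 held no other gene called higher: of 7 tested genes 2 were lower, the Notch cofactor Rbpj (-0.64) and Dtx1 (-1.12), a Notch regulator, and the median was -0.14. With cells with C1q, T and NK or B cell UMIs left out on both sides, Rbpj was at -0.73 and Dtx1 at -0.04.

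**Figure D3:**
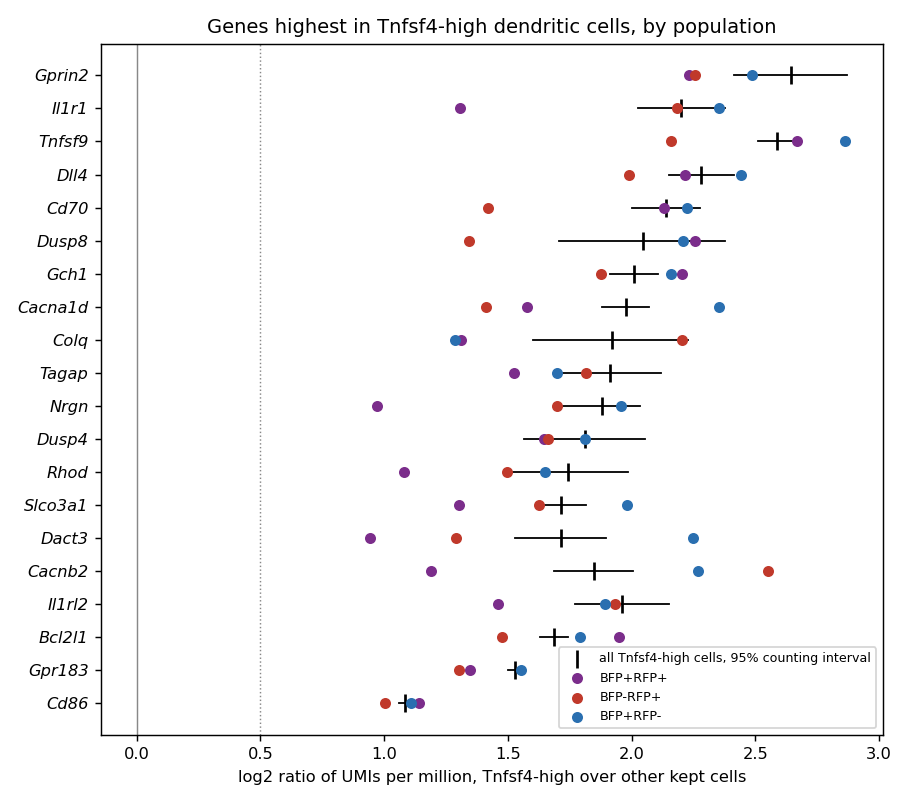
Log2 ratio of Tnfsf4-high over other cells for the 15 genes with the largest ratios and 5 more genes named in the text, over all cells (black mark with its 95% counting interval) and within the 3 populations with at least 20 Tnfsf4-high cells (coloured points). Every point lies right of the dotted line at 0.5, and for Gprin2 the ratio over all cells, 2.64, is larger than that within any of the 3 populations.

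Part of these ratios moved with depth, population mix and cell state. BFP+RFP+ cells were 44.0% of Tnfsf4-high and 16.8% of all kept cells, and against other cells in the same hashtag mix Gprin2 was at 2.26 and Il1r1 at 1.66, while Tnfsf9 was at 2.61. Set against other cells drawn to the same depth, Tnfsf9 was at 2.21, Gprin2 at 2.00, Dll4 at 1.95, Cd70 at 1.91, Il1r1 at 1.76 and Gch1 at 1.603. Set against other cells in the same mix of expression clusters, the ratios were 1.76, 1.63, 1.25, 1.33, 1.45 and 1.38. The 6 genes stayed above 1 in both settings. At the cluster mix 289 genes were called higher and 762 lower. The clusters were built from the same genes, so that setting also removes some of what sets Tnfsf4-high cells apart.

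Costimulation was represented by a few strong genes. Cd86, a ligand of CD28, stood at 2359, 2547, 2207 and 2902 CPM in Tnfsf4-high cells of BFP+RFP+, BFP-RFP+, BFP+RFP- and then BFP-RFP- populations, against 1070, 1272, 1024 and 1107 CPM in other cells (1.08). Cd80, its relative, stood at 1203 and 606 CPM in Tnfsf4-high and other cells (0.99). Cd24a, a costimulatory surface glycoprotein, stood at 80.5, 74.4, 57.0 and 27.9 CPM, against 44.8, 33.5, 19.4 and 24.6 CPM (1.33). With Icosl, the ligand of ICOS (0.57), these were the 4 of 14 genes of the B7 and SLAM list called higher. The 3 called lower were Vsir (-1.34), which encodes the inhibitory protein VISTA, and the SLAM receptors Cd84 (-1.26) and Slamf1 (-0.70). The list's median was 0.12.

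MHC class II presentation had a median of 0.26, with 4 of 14 genes called higher and none lower. H2-Ob (0.84) encodes a chain of the DO regulator, H2-DMa (0.82) and H2-DMb2 (0.63) chains of the peptide exchange factor DM, and Ciita (0.63) the transactivator of class II genes. H2-DMa stood at 475.5, 393.3, 405.2 and 282.2 CPM in Tnfsf4-high cells of the populations in the same order, against 355.4, 239.1, 242.2 and 171 CPM in other cells. The main class II chains were closer, with H2-Ab1 at 0.42 and the invariant chain Cd74 at 0.25. None of the 14 was called at the same cluster mix, where the median was 0.07. MHC class I presentation had 0 of 15 genes called in either direction, with a median of -0.17 that lay near that of all genes. H2 genes and other families of close copies can share reads, and how reads that match several genes were counted is not given in the sources used here.

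Among secreted cytokines 3 of 7 tested genes were called higher and 1 lower, with a median of 0.49. Il12b, the p40 chain of IL-12 and IL-23, stood at 152, 77.0, 128.6 and 202 CPM in Tnfsf4-high cells of BFP+RFP+, BFP-RFP+, BFP+RFP- and then BFP-RFP- populations, against 26.3, 39.0, 28.1 and 85.5 CPM in other cells (1.68), with the top 5 cells holding 12.4% of its UMIs. Il6 stood at 59.6, 25.7, 16.2 and 3.48 CPM, against 16.2, 11.9, 9.98 and 7.27 CPM (1.70). Ebi3, a subunit of IL-27 and IL-35, stood at 228, 149, 176 and 129 CPM, against 102.5, 68.6, 76.3 and 60.7 CPM (1.36). Ebi3 was higher in each population, whereas Il6 was lower in the 12 BFP-RFP- cells, on 1 UMI. Il15, a cytokine for NK and memory T cells, was lower (-0.74).

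Of 13 chemokines 2 were called higher and 6 lower, with a median of -0.37, but 5 and 5 were without the 5% deepest cells and 5 and 5 at the same hashtag mix. Ccl5, which attracts T cells, stood at 1214, 671, 1657 and 1676 CPM in Tnfsf4-high cells of the populations in the same order, against 3070, 2996, 4734 and 4986 CPM in other cells (-1.62), so that every Tnfsf4-high value lay below every value of the other cells. At the same cluster mix the ratio of Ccl5 was -0.66. Ccl17, a ligand of CCR4 on T helper 2 cells, was at 284 and 412 CPM in Tnfsf4-high and other cells (-0.53), and Ccl22, which binds the same receptor, at 2549 and 1863 CPM (0.45, not called). Ccl4, a chemokine of activated immune cells, was higher (1.04, and 2.56 at the same cluster mix). Cxcl1, which attracts neutrophils, was higher too (1.57), but the top 5 cells held 19.1% of its UMIs and the BFP-RFP- cells had 3.48 CPM against 26.7 CPM. Of the receptors that guide cells in lymph nodes 2 of 11 were called higher and 5 lower, with a median of -0.49. Gpr183, the oxysterol receptor that positions dendritic cells at the edge of the T cell zone, stood at 1466, 1569, 1033 and 948 CPM, against 576, 637, 352 and 336 CPM (1.53). S1pr3, a sphingosine-1-phosphate receptor, was higher (1.29), and its relative S1pr1 (-1.55), the chemokine receptor Cxcr4 (-1.10) and the chemerin-binding Ccrl2 (-1.07) were lower.

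Immediate early genes and AP-1 members, which respond within minutes to many stimuli, had a median of 0.68 with 10 of 16 called higher and 1 lower. Egr1, a zinc finger factor of this class, stood at 136.5, 231.7, 119.3 and 132.4 CPM in Tnfsf4-high cells of BFP+RFP+, BFP-RFP+, BFP+RFP- and then BFP-RFP- populations, against 33.5, 61.7, 35.2 and 71.4 CPM in other cells (1.54). Dusp2, a nuclear MAP kinase phosphatase, stood at 244.3, 246.3, 171.1 and 278.7 CPM, against 45.2, 90.8, 54.2 and 77.4 CPM (1.70). Both genes had every Tnfsf4-high value above every value of the other cells. Maff (1.24), Ier2 (1.21), the nuclear receptors Nr4a1 (0.96) and Nr4a3 (0.91), Fos (0.74) and Jun (0.66) were also called higher, and the stress factor Atf3 was the 1 called lower (-0.77). The dissociation stress list, made mostly of heat shock genes and without the immediate early genes above, had 0 of 11 called higher and 2 lower. Hspa1a was at -1.58 and Hspa1b at -1.25, and these are near-identical heat shock genes whose reads may be shared. The median of the stress list was -0.03. The part of tissue dissociation in either list was not tested.

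Of 24 genes of NF-kB subunits and feedback 6 were called higher and none lower, with a median of 0.16. Nfkbiz, an atypical inhibitor that also activates a subset of targets, stood at 199.4, 262.5, 195.5 and 181 CPM in Tnfsf4-high cells of the populations in the same order, against 77.7, 101, 76.1 and 104 CPM in other cells (1.23). Nfkbia, the classical inhibitor, stood at 2838, 2608, 2245 and 2484 CPM, against 1309, 1465, 1236 and 1311 CPM (0.95). The subunit Nfkb1 was also higher (0.94), as were the feedback genes Tnip3 (1.18), Nfkbid (0.88) and Tnfaip3 (0.74). The subunits Rela (0.12), Relb (-0.14) and Nfkb2 (0.07) were not called, and neither were the inhibitors and feedback genes Nfkbib (0.42), Nfkbie (0.18), Tnip1 (0.14) and Bcl3 (-0.15).

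Promoter sequence was read for the leading genes because several are known from other work as targets of NF-kB. RefSeq promoters (250 bases before to 50 after the start, GRCm38.p6) were matched for 9 of the 15 genes with the largest higher ratios. A kappaB consensus was searched on both strands as GGG, A or G, any 2 bases, 2 of C or T, then CC. It was present in 3 of the 9 genes, against 8.46% of 32851 promoters, and the 3 windows are shown with the match in capitals. For each motif here a gene counted if any of its promoters matched, while the percentages count single promoters. The gene counts and the percentages are thus in unlike units. The AP-1 motif TGANTCA was in 0 of the 9, against 7.81% of all promoters, and the CRE motif TGACGTCA in 1, Dusp8, against 1.79%. Of the 15 lower genes 11 were matched, and 1 held the kappaB consensus (Slfn1) and 2 the AP-1 motif (Clec12a and Ms4a4b). A match is a run of letters and not a site shown to be bound.
Dll4, chr2:119325665-119325694, + strand, match on the opposite strand at -109 to -100 from the start: cggcgggggcGGAGGCCCCCtccggtgggt
Gch1, chr14:47189404-47189433, - strand, match on both strands at -10 to -1 from the start: gaggcgcggcGGGGCTCCCCagccggcgac
Il1r1, chr1:40266344-40266373, + strand, match on the opposite strand at -232 to -223 from the start: cagggattttGGAATGCCCCcaaggagatg

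Genes of the TSLP receptor and STAT5 response did not move as a group. Of 17 genes 4 were called higher and 4 lower, with a median of 0.05. The feedback inhibitors Socs3 (1.49) and Cish (0.62), the kinase Pim1 (0.82) and the IL-2 receptor chain Il2ra (0.77) were higher. Socs3 stood at 78.9, 121.4, 52.9 and 73.2 CPM in Tnfsf4-high cells of BFP+RFP+, BFP-RFP+, BFP+RFP- and then BFP-RFP- populations, against 25.9, 32.7, 23.2 and 23.9 CPM in other cells. Ccl17 (-0.53), the cytokine Osm (-0.55), the kinase Pim2 (-0.82) and the survival gene Bcl2 (-1.74) were lower. Bcl2 came to 0.19 when cells with C1q, T and NK or B cell UMIs were left out on both sides, a restriction chosen after the data had been seen. Of 25 cytokine receptors outside the lists above, 1 was called higher and 9 lower, with a median of -0.32. In that restricted set the counts were 1 and 5 with a median of -0.09, and at the same cluster mix 0 and 4.

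Survival genes split. Bcl2l1, which encodes the anti-apoptotic protein Bcl-xL, stood at 377, 391, 338 and 282 CPM in Tnfsf4-high cells of the populations in the same order, against 97.6, 141, 97.6 and 120 CPM in other cells (1.69). Its lowest Tnfsf4-high value was above the highest value of the other cells. Bcl2l11, the pro-apoptotic Bim, was higher too (0.57), Bbc3, the pro-apoptotic Puma, was lower (-0.51) and Mcl1, another survival gene, was not called (0.48). Of 14 tested genes of the BCL2 family 2 were called higher and 2 lower, with a median of -0.12.

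Among dendritic cell transcription factors 7 of 29 were called higher and 5 lower, with a median of -0.09. Tcf4, the factor best known for plasmacytoid dendritic cells, stood at 789, 910, 715 and 902 CPM in Tnfsf4-high cells of BFP+RFP+, BFP-RFP+, BFP+RFP- and then BFP-RFP- populations, against 524, 449, 363 and 324 CPM in other cells (0.97). Its Tnfsf4-high values all lay above those of the other cells. Id1, an inhibitor of E proteins, was higher (1.65), as were Runx2 (0.96), Stat4 (0.93), Irf4 (0.81), the factor of type 2 conventional dendritic cells (cDC2), Runx3 (0.61) and Zbtb46 (0.51), a factor of conventional dendritic cells. Ets1 (-1.44), Runx1 (-0.78) and Irf8 (-0.59), the factor of cDC1, were lower. In the restricted set defined above Ets1 was at -0.26, below the call in size, Runx1 at -0.67 and Irf8 at -0.54. Of 8 tested plasmacytoid markers, 3 were called higher and 2 lower, with a median of 0.07 that was 0.62 in the restricted set defined above, and Siglech, Klk1 and Dntt had 0 UMIs in Tnfsf4-high cells.

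**Figure D4:**
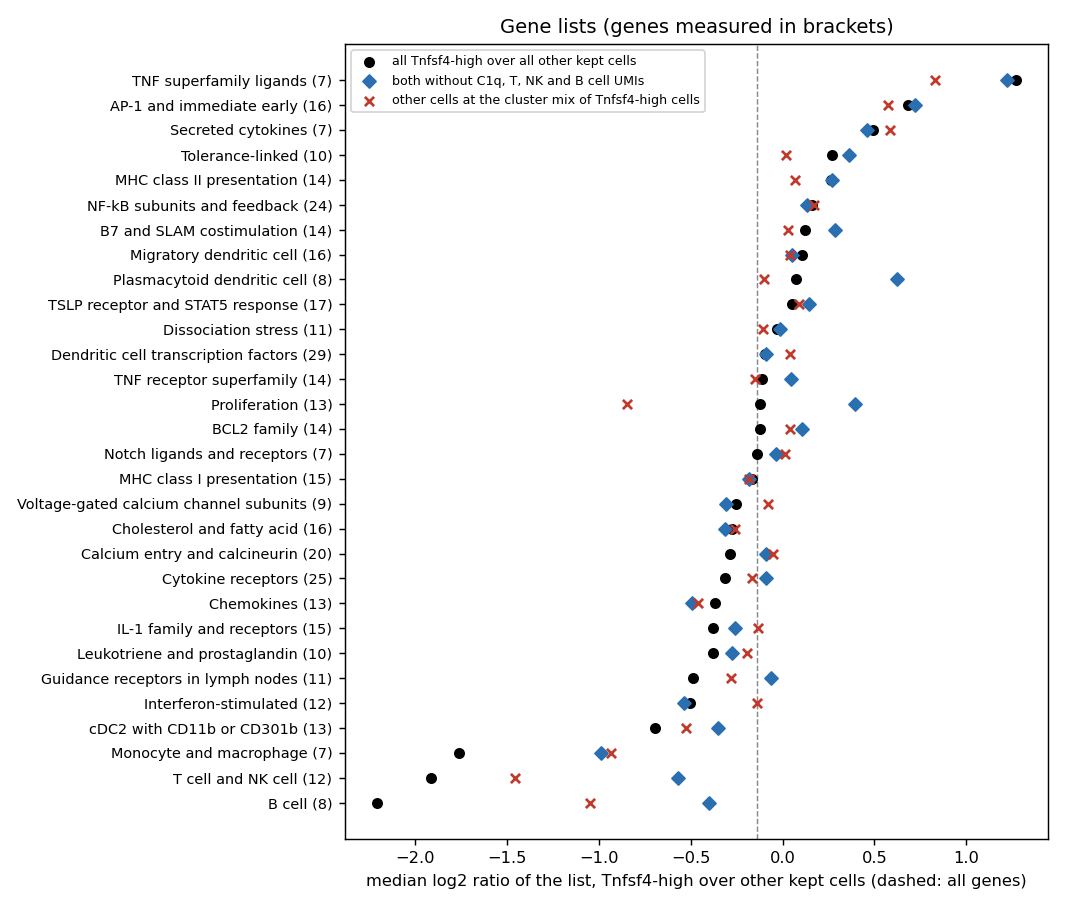
Median log2 ratio of Tnfsf4-high over other cells for each list with at least 7 tested genes (black), the same in the restricted set without C1q, T and NK or B cell UMIs (blue) and at the same cluster mix (red), beside the median of all 9250 tested genes at -0.14. Over all cells TNF superfamily ligands lie highest at 1.27, AP-1 and immediate early genes next at 0.68 and B cell markers lowest at -2.21.

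Markers of other leukocytes were lower in Tnfsf4-high cells. Of T and NK cell markers 0 of 12 were called higher and 12 lower (median -1.91), of B cell markers 0 of 8 and 7 (-2.21), and of monocyte and macrophage markers 0 of 7 and 5 (-1.76). The summed level of the T and NK cell list was 65.6 CPM in Tnfsf4-high and 233.8 CPM in other cells, of the B cell list 42.7 and 115.0 CPM, and of the monocyte and macrophage list 299.4 and 381.7 CPM. Among the 15 lowest ranked genes, Cd3d (-2.03), a T cell receptor chain, and the lymphocyte genes Gimap4 (-2.47), Gimap3 (-2.03) and Ms4a4b (-2.07) are known from such cells. H2ac6 (-2.69), a histone gene and the lowest of these 15, and the phosphatase gene Inpp4b (-2.55) are on none of these lists. Of the 256 cells with T and NK cell UMIs 10 were Tnfsf4-high, of the 134 with B cell UMIs 1, and of the 50 with C1q UMIs 0, as the rule sets. Leaving out cells with C1q, T and NK or B cell UMIs on both sides, with 412 Tnfsf4-high and 4167 other cells left, the T and NK cell list had 0 called higher and 7 lower (median -0.57), the B cell list 2 and 4 (-0.40) and the monocyte and macrophage list 1 and 4 (-0.99).

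The lowest genes of that restricted set were of mixed roles. The histone gene H2ac6 stood at 0.610 CPM in Tnfsf4-high and 5.49 CPM in other cells (-3.06), and Adgre1, which encodes the macrophage marker F4/80, at 2.75 and 14.5 CPM (-2.37). Clec12a, an inhibitory lectin, stood at 1.73 and 7.60 CPM (-2.10), Mefv, which encodes pyrin, at 2.65 and 12.6 CPM (-2.23), and Ehf, an epithelial-type ETS factor, at 2.65 and 13.2 CPM (-2.29). Apol7c, an apolipoprotein L family gene with close copies, was the most abundant of them, at 113.6 CPM in Tnfsf4-high and 439.3 CPM in other cells (-1.95). Over all kept cells Adgre1 was lower in each of the populations, at 1.88, 6.84, 3.24 and 3.48 CPM in BFP+RFP+, BFP-RFP+, BFP+RFP- and then BFP-RFP- Tnfsf4-high cells, against 6.68, 16.6, 9.59 and 25.8 CPM in other cells. Markers of cDC2 with CD11b or CD301b had 0 of 13 called higher and 8 lower over all kept cells (median -0.70; -0.35 in the restricted set). Of these the lectin gene Clec4a2 (-3.37), Ccr2, a receptor of monocyte-derived cells (-3.01), and Lyz2, a lysozyme (-2.73), were the lowest. These ratios rested in part on few cells, since the top 5 cells held 21.3%, 21.3% and 16.8% of the UMIs. Lyz2 was detected in 20.1% of Tnfsf4-high and 17.97% of other cells, whereas Clec4a2 and Ccr2 were detected in a smaller share of Tnfsf4-high cells. At the same cluster mix the 3 ratios were -1.21, -0.43 and -0.69, and the list had 0 called higher and 7 lower. Over all kept cells Sirpa, which encodes CD172a, was at -0.34 and Mgl2, which encodes CD301b, at 0.16, neither past the call.

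Interferon-stimulated genes were lower, with 0 of 12 called higher, 6 lower and a median of -0.51. Irf7, a regulator of that response, was at -1.85, the antiviral GTPase Mx1 at -1.58 and the ubiquitin-like Isg15 at -1.07. At the same cluster mix the median of the list was -0.14. Genes of cholesterol and fatty acid metabolism had 0 of 16 called higher and 4 lower (-0.27), the lowest being the cholesterol exporter Abca1 (-1.43). In leukotriene and prostaglandin synthesis 3 of 10 were called higher and 3 lower, with Mgll (0.99) and the cyclooxygenase Ptgs2 (0.88) higher and Ltc4s, the leukotriene C4 synthase, lower (-1.58). Proliferation genes had 1 of 13 called higher and 2 lower, with a median of -0.12; no direction held, since 0 were higher and 8 lower at the same depth (median -0.73) and 6 higher and 0 lower in the restricted set (0.39). Of 10 genes linked to tolerance 2 were called higher, Socs3 and the arginase Arg2 (1.21), and 2 lower, the retinoic acid enzyme Aldh1a2 (-0.79) and the inhibitory receptor gene Havcr2 (-0.88), with a median of 0.27. Thy1, a surface protein of T cells and of some dendritic cells, was noticed after its values had been seen: it stood at 161 CPM in Tnfsf4-high and 50.2 CPM in other cells (1.68), and at 161.6 and 43.7 CPM in the restricted set (1.89). Its ratio was 1.23 at the same depth and 0.41 at the same cluster mix, which is below the call.

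Antibody tags are a second measure of the same cells that the rule did not use. The CD8a tag was higher on Tnfsf4-high cells, with medians of 212 UMIs in BFP+RFP+, 165 in BFP-RFP+, 127.5 in BFP+RFP- and 157 in BFP-RFP- cells, against 109, 61, 39 and 39 UMIs in other cells. Every Tnfsf4-high median was above every median of the other cells. The log2 ratio of means was 1.12 over all cells and 0.72, 0.64, 1.17 and 1.05 within the populations, and 84.2% of Tnfsf4-high cells lay above the median of all kept cells (52 UMIs), against 46.8% of other cells. The ratio was above 0 in every alternative run, from 0.57 to 1.24, and it was 0.57 against other cells of the same depth and 0.57 at the same cluster mix. CD8a is the T cell coreceptor chain and also marks some dendritic cells. Its mRNA, Cd8a, stood at 42.8, 51.3, 37.8 and 62.7 CPM in Tnfsf4-high cells, against 27.9, 36.9, 17.3 and 19.95 CPM in other cells (0.85), but its ratio was 0.44 at the same depth and -0.05 at the same cluster mix. Cd8b1, the other chain used by T cells, was lower over all cells (-2.004).

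The other tags gave no direction that held across both medians and means and all settings. CD11b had medians of 29.5, 44, 55 and 57.5 UMIs in Tnfsf4-high cells of BFP+RFP+, BFP-RFP+, BFP+RFP- and then BFP-RFP- populations, against 24, 39, 45 and 56 UMIs in other cells, and the pooled medians were 41 and 41. Its log2 ratio of means was -0.31, but -0.03 without BFP+RFP+ cells and -0.80 without BFP+RFP- cells. That ratio was below 0 in every alternative run, from -0.9993 to -0.03, while the median was higher in Tnfsf4-high cells of each population. CD172a had medians of 65.5, 58, 106 and 123 UMIs in Tnfsf4-high cells, against 63, 103, 92 and 129.5 UMIs in other cells, with a ratio of means of -0.07 that was 0.10 without BFP+RFP+, 0.04 without BFP-RFP+, -0.51 without BFP+RFP- and 0.01 without BFP-RFP- cells. CD301b had medians of 27, 28, 39 and 59.5 UMIs, against 27, 32, 31 and 43 UMIs, with a ratio of means of -0.17 that was 0.15, -0.11, -0.90 and 0.06 when the populations were left out in the same order. Leaving out 1 population turned the sign of CD172a and CD301b, so no direction is given for them. Against other cells of the same depth the ratios of means were -0.97 for CD11b, -0.64 for CD172a and -0.74 for CD301b.

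**Figure D5:**
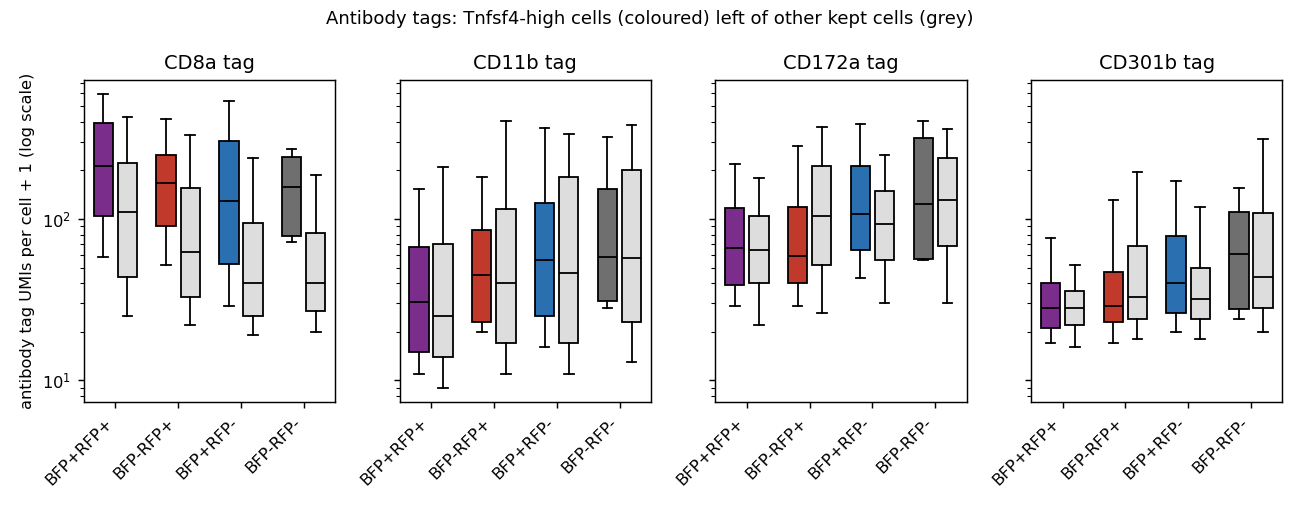
Antibody tag UMIs per cell (log axis) for CD8a, CD11b, CD172a and CD301b in Tnfsf4-high (coloured) and other cells (grey) of each sorted population, with boxes for the quartiles, a line for the median and whiskers for the outer deciles. The CD8a medians of Tnfsf4-high cells, 127.5 to 212 UMIs, lie above those of other cells, 39 to 109 UMIs, while the CD11b medians are close within each population.

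Tnfsf4-high cells were not of 1 expression state. In a clustering of all kept cells into 12 clusters, cluster 2 held 205 of the 423 Tnfsf4-high cells (48.5%), cluster 8 held 75, cluster 1 held 53, cluster 7 held 33, cluster 6 held 27, and the remaining clusters held 0 to 9 each. They were 26.5% of the cells of cluster 2, 18.1% of cluster 8 and 13.0% of cluster 1. The clusters used the genes described here, so their defining genes are no separate finding, and they are left unnamed. In the order of clusters 2, 8, 1, 7 and 6, Tnfsf4 stood at 958, 583, 581, 410 and 520 CPM in Tnfsf4-high cells and Tnfsf9 at 388, 107, 169, 81.8 and 30.3 CPM. Dll4 stood at 135.5, 30, 14.8, 35.3 and 28.0 CPM, Gch1 at 215, 79.5, 73.3, 45.3 and 9.33 CPM, and Thy1 at 281, 41.1, 15.6, 143.5 and 28.0 CPM. These 5 genes were highest in the Tnfsf4-high cells of cluster 2, but other leading genes were not: Il1rl2 stood at 66.7 CPM in cluster 7 against 50.3 CPM in cluster 2, and Il12b at 199.2 CPM in cluster 1 against 158.1 CPM in cluster 2. Cxcl1 was highest in those of cluster 1, at 164 CPM against 63.4 CPM in cluster 2, and Ccl5 in those of cluster 6, at 4828 CPM against 459 CPM in cluster 2. The median CD172a tag was 237 UMIs in the Tnfsf4-high cells of cluster 1 and 58 to 77 UMIs in the other 4, and the median CD8a tag was 95 UMIs in cluster 1, 66 in cluster 6 and 165 to 230 in the other 3.

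Among Tnfsf4-high cells, RFP+ was compared with RFP- within the BFP+ populations, with 186 and 174 cells. This asks whether cells with a history of Siglech-driven Cre differed once Tnfsf4 was high. Of 6385 genes with at least 100 UMIs in both together, 34 were higher by at least 1 on the log2 scale (0.532%) and 77 lower (1.21%), with a median of -0.05. Il6 was at 59.6 CPM in BFP+RFP+ and 16.2 CPM in BFP+RFP- cells (1.87, 1.503 to 2.27), and Atp1b1, a subunit of the sodium pump, at 104.5 and 42.5 CPM (1.296). Tnfsf11, which encodes RANKL, was at 24.7 and 5.61 CPM (2.12), but 3 cells held 62.9% and 80.8% of its UMIs. Apol7c was lowest, at 18.6 CPM in BFP+RFP+ and 194.2 CPM in BFP+RFP- cells (-3.38), followed by Ttc39b (-2.80), the protease inhibitor Serpinb1a (-2.68), the sphingomyelin synthase Sgms1 (-2.62) and Ltc4s (-2.53, 7.30 and 42.7 CPM). In the BFP+RFP- cells 3 cells held 29.6% of the UMIs of Apol7c, 19.7% of Ttc39b, 41.0% of Serpinb1a, 48.7% of Sgms1 and 25.8% of Ltc4s, so these levels rested in part on few cells. Tnfsf4 itself was at 0.56, Il1rl2 at 1.27, Gprin2 at 0.85, Dll4 at 0.67, Il1r1 at 0.58, Tnfsf9 at 0.41, Ccl5 at -0.45 and Ccl17 at -0.61. These populations also lay in different clusters: cluster 2 held 54.8% of the BFP+RFP+ and 37.4% of the BFP+RFP- Tnfsf4-high cells, and clusters 0 and 5, whose leading genes include Apol7c and Ltc4s, held 0 BFP+RFP+ cells and 7 and 6 BFP+RFP- cells. The part of this in the gene differences was not tested.

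BFP+ was compared with BFP- among Tnfsf4-high RFP+ cells, with 186 and 51 cells. Of 5055 genes 35 were higher (0.692%) and 50 lower (0.989%), with a median of -0.06. The guidance receptor Plxna4 was at 271.9 CPM in BFP+RFP+ and 85.5 CPM in BFP-RFP+ cells (1.66), with 3 cells holding 14.2% and 47.0% of its UMIs, and the growth factor receptor Met was at 42.4 and 12.8 CPM (1.68). Ripor2, a regulator of RhoA, rested on 130 UMIs in BFP+RFP+ and 2 UMIs in BFP-RFP+ cells (3.85, 2.28 to 7.22). Wdfy4, a gene of cross-presentation, was at 26.8 and 174.4 CPM (-2.70), with 46.6% of the BFP-RFP+ UMIs in 3 cells, Apol7c at 18.6 and 100 CPM (-2.42), with 73.5% in 3 cells, and Il1b at 51.3 and 157.3 CPM (-1.62), with 62.0% in 3 cells. The translation factor Eif5a was at 176.5 and 408.7 CPM (-1.21), with 27.4% of the BFP-RFP+ UMIs in 3 cells. With 51 cells on the BFP- side, single cells carried much of these levels. Tnfsf4 was at 0.78, BFP at 1.11, Il6 at 1.19, Il12b at 0.98, Ccl5 at 0.85 and Gch1 at -0.41. The 12 BFP-RFP- cells were too few for a comparison with BFP-RFP+ or BFP+RFP- cells.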

How the data were processed

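The authors deposited raw UMI counts of 6079 barcodes from 1 capture, with 22548 gene features, 4 antibody features and 4 hashtag features. Cell Ranger 7.0.0 wrote the matrix, per the file headers, and the build is GRCm39 (mm39), per the submitters' processing notes. How cells were called and multiply mapped or antisense reads treated was not given in the sources used here. Of the barcodes, 5380 passed the hashtag rule and 361 of these failed the quality rule. Kept cells gave 10339086 mRNA UMIs in Tnfsf4-high and 70005400 in other cells.

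Summed UMIs were scaled to 1000000 mRNA UMIs (CPM), and log2 ratios used a pseudocount of 0.5 UMI. Intervals at 95% are exact (Poisson, conditional binomial or Clopper-Pearson). Each population is 1 sample, so nothing was tested between groups. The cells and the 34 gene lists were chosen with earlier results of these data known. Named genes were the 15 largest ratios per direction with at least 300 UMIs, at least 100 UMIs on the higher side, the same sign in each population with at least 20 Tnfsf4-high cells and at most 10% of UMIs in the top 5 cells, plus the markers, up to 4 genes per list and 6 per direction between populations. Further list members, the restricted set without C1q, T and NK or B cell UMIs, and the shares held by 3 cells were chosen after values had been seen. Reporters, mitochondrial, ribosomal and antigen receptor genes and unnamed gene models were left out of the ranking.

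Clustering used scanpy 1.11.5 (2000 variable genes, 30 principal components, 15 neighbours, Leiden resolution 0.5). Alternatives used HTODemux in Seurat 5.3.0 at quantile 0.99, TMM in edgeR 4.0.16 (R 4.3.3), other thresholds, and other cells weighted to the same depth, hashtag or cluster mix. Scripts ran in Python 3.11.15 with numpy 2.4.6 and scipy 1.17.1 and were tested on simulated counts.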

Additional observations from a re-analysis of the deposited data

How the results depend on the processing

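No paired analysis was possible because the result comes from no test, with 1 sample per population. Depth limits rare genes most: in the 12 BFP-RFP- cells many levels rest on 0 to 3 UMIs, and no interval covers mice, sorts or captures.

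The counts of 484 genes higher and 1323 lower were 446 to 502 and 1077 to 1324 with 1 population left out. At the same cluster mix they were 289 and 762, with TMM 761 were higher, with a minimum of 1 UMI 2849 and 3719, and with a minimum of 1000 UMIs 536 were lower. The tag log2 ratios in the order CD8a, CD11b, CD172a and CD301b were 1.12, -0.31, -0.07 and -0.17. With HTODemux the last 3 were -0.43, -0.11 and -0.39. At 3 or more Tnfsf4 UMIs the 4 ratios were 1.14, -0.42, -0.044 and -0.27, at 10 or more 1.24, -0.62, -0.21 and -0.24, and at 300 or more Tnfsf4 CPM 0.96, -0.9993, -0.52 and -0.74. Without C1q, T and NK or B cell UMIs among other cells they were 1.21, -0.24, -0.10 and -0.20, and on both sides 1.19, -0.26, -0.13 and -0.21. Without the 5% deepest cells they were 0.99, -0.71, -0.35 and -0.48, at the same depth 0.57, -0.97, -0.64 and -0.74, at the same hashtag mix 0.87, -0.12, 0.17 and 0.24, and at the same cluster mix 0.57, -0.081, 0.052 and -0.088. With 1 population left out they ranged from 1.04 to 1.22, -0.80 to -0.030, -0.51 to 0.10 and -0.90 to 0.15.

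The shares of Tnfsf4-high cells at 3 or more UMIs were 29.8% in BFP+RFP+, 7.54% in BFP-RFP+, 12.2% in BFP+RFP- and 2.47% in BFP-RFP- cells, and at 10 or more UMIs 14.1%, 2.24% and 4.17% in the first 3. The BFP+RFP- share was 6.27% at 300 CPM, 6.67% after thinning and 6.41% without the 5% deepest cells. Genes lower in RFP+ within BFP+ numbered 41 without the 5% deepest cells, and in BFP+ within RFP+ genes lower numbered 20 there and genes higher 57 at a matched Tnfsf4 level.

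Of 561 values for 33 named genes under 17 settings, 5 turned sign, all when cells with C1q, T and NK or B cell UMIs were removed from the other cells alone, which left such cells among the Tnfsf4-high cells: Inpp4b 0.93, Ms4a4b 1.499, Cd3d 0.65, Gimap3 0.71 and Ms4a6b 0.14. The causes of the other moves were not tested.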
